A study of Mus musculus with 11 samples.

Results

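Transcripts of 8 genes that mark the alpha and delta cells of the islet were followed through RNA-seq libraries of sorted mouse beta cells, to ask how much RNA of other islet cells lay in the beta cell gates and whether that amount differed between the gates. The 5 alpha cell genes were Gcg, Irx1, Irx2, Ttr and Gc, and the 3 delta cell genes were Sst, Hhex and Rbp4. They were found by gene symbol among the 55487 genes of the quantified annotation. All 8 were present, 6 held enough counts to be tested, and Irx1 and Hhex did not. The 11 libraries came from islets of C57BL/6 mice, which the methods give as C57BL/6JRj males aged 12 weeks. PD-L1high beta cells (4 libraries, replicates 1 to 4) and PD-L1low beta cells (3 libraries, replicates 2 to 4) were sorted from islets cultured for 20 h with 50 pg/mL of interferon gamma (IFNγ), on high or low surface PD-L1, the immune checkpoint ligand that Cd274 encodes. Control beta cells (4 libraries, replicates 1 to 4) came from islets cultured without IFNγ. The study describes its beta cell gate, for islets cultured without IFNγ or with a higher dose than here, as EpCam-positive cells without blood or endothelial surface markers, with low CD24 and with CD71, the transferrin receptor. The gate of these 11 libraries is not described separately in the sources used here. In this scheme alpha cells fall in the CD71-negative gate and delta cells in the CD24-high gate. Nothing in the labels ties a library to particular mice, so p-values describe these libraries. In the main model they measure the spread left between libraries after condition and replicate number are fitted.

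Alpha cells secrete glucagon, which raises blood glucose by acting on the liver, and delta cells secrete somatostatin, which holds back the release of both insulin and glucagon from their neighbours. Both cell types lie among the beta cells of the islet, and the 3 types can be parted by surface markers only as far as those markers differ. A hormone transcript is among the most abundant RNAs of the cell that makes it, whereas transcription factors such as Irx1, Irx2 and Hhex give few transcripts per cell.

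The markers differ in what they encode. Gcg encodes preproglucagon, the precursor of glucagon and of glucagon-like peptides, and Sst encodes preprosomatostatin. Irx1 and Irx2 are homeodomain transcription factors, and Hhex is the homeodomain factor needed to keep delta cell identity. Ttr encodes transthyretin, a carrier of thyroid hormone and of the retinol-binding protein. Gc encodes the vitamin D-binding protein. Rbp4 encodes that retinol-binding protein. Positions on GRCm38, from the GENCODE annotation, were chr2:62474530-62483650 on the minus strand for Gcg, chr16:23889573-23890958 on the minus strand for Sst and chr19:38116629-38125281 on the minus strand for Rbp4. Irx1 (chr13:71957921-71963723, minus strand) and Irx2 (chr13:72628820-72634198, plus strand) lie on the same chromosome. Gc lies at chr5:89417522-89457898 on the minus strand and Hhex at chr19:37434810-37440731 on the plus strand. All 8 are annotated as protein-coding.

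Promoter sequences of Gcg and Sst are shown because these were the genes whose transcripts differed between the PD-L1 gates. They are RefSeq promoter sequences on GRCm38.p6, 5′ to 3′ along the gene, with motif matches in capitals, and distances are counted from the RefSeq start of each gene, at base 62483653 for Gcg and base 23890844 for Sst. The Gcg stretch holds the 250 bases before the start, at chr2:62483654-62483903 on the minus strand, and the Sst stretch the 30 bases around its cAMP response element, at chr16:23890874-23890903 on the minus strand. The GENCODE model of Sst begins further upstream than the RefSeq start used here, so that this stretch lies before the RefSeq start but within the GENCODE gene.
Gcg: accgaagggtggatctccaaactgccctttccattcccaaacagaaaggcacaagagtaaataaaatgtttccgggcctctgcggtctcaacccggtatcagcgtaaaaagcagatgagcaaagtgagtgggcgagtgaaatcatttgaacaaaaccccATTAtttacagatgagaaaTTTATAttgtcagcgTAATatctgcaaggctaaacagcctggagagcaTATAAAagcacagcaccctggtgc
Sst: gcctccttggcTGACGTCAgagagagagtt
The Gcg stretch holds the TATA box letters TATAAA 24 to 19 bases before the RefSeq start, the same letters on the other strand (TTTATA) 72 to 67 bases before it, and the homeodomain core TAAT once on each strand. The Sst stretch holds TGACGTCA, the palindromic element that binds CREB, 48 to 41 bases before the RefSeq start. Of 32851 RefSeq promoter windows of 250 bases, 1.55% held TGACGTCA, 12.4% held TATAAA on either strand and 54.9% held TAAT on either strand. These matches describe the letters and were not tied to the values below.

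Library totals ran from 10422038 to 15810817 expected counts, and the share of mitochondrial genes from 5.54% to 13.3%, which was highest in control replicate 1. That library also had the lowest Ttr, Gc and Ins2 levels of all 11 libraries. Ins1 and Ins2 together took 133951 to 207887 TPM in PD-L1high libraries, 123657 to 164829 TPM in PD-L1low libraries and 78247 to 213751 TPM in control libraries, so insulin transcripts were abundant in every library. Cd274 was at 172 to 279 CPM (counts scaled to library size) in PD-L1high cells, 30.5 to 47.0 CPM in PD-L1low cells and 15.1 to 25.1 CPM in control cells, which follows the sort. CPM was scaled by the normalization factor of each library and not by gene length, whereas TPM also takes the transcript length into account.

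Per length, the markers spanned a wide range of levels, and the order of their medians over the 11 libraries was Gcg, Ttr, Gc, Sst, Rbp4, Irx2, Irx1 and Hhex. Gcg had a median of 614 TPM and a range of 197 to 1724 TPM. Ttr followed with a median of 177 TPM and a range of 72.8 to 213 TPM, which overlaps that of Gcg. Gc had a median of 37.1 TPM and a range of 12.8 to 56.7 TPM, below every Ttr value. Sst, with a median of 14.6 TPM and a range of 3.24 to 74.4 TPM, overlapped Gc. Rbp4 (median 5.05 TPM, range 1.63 to 11.7 TPM), Irx2 (median 1.61 TPM, range 0.20 to 4.77 TPM), Irx1 (median 0.23 TPM, range 0 to 1.55 TPM) and Hhex (median 0 TPM, range 0 to 0.36 TPM) each overlapped the gene before it in this order. Of these neighbours, Ttr and Gc alone were separated by more than their spread over libraries. Gcg exceeded Ttr in every single library, by 1.17 times at the least, in PD-L1low replicate 3.

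Glucagon transcripts were higher in the PD-L1high gate than in the PD-L1low gate. Gcg (ENSMUSG00000000394) was at 445, 1308, 1105 and 671 CPM in PD-L1high replicates 1 to 4, at 227, 170 and 230 CPM in PD-L1low replicates 2 to 4, and at 219, 1161, 421 and 831 CPM in control replicates 1 to 4. Every PD-L1high library lay above every PD-L1low library, and the PD-L1low libraries lay close together, whereas the control libraries spread from within the PD-L1low range to within the PD-L1high range. The means were 882 ± 394 CPM (SD, n = 4) in PD-L1high cells, 209 ± 34.2 CPM (SD, n = 3) in PD-L1low cells and 658 ± 421 CPM (SD, n = 4) in control cells. Between the PD-L1 gates, Gcg was 5.18-fold higher in PD-L1high cells, a log2 fold change of 2.37 (SE 0.32, 95% interval 1.63 to 3.12, edgeR quasi-likelihood adjusted p = 0.0162). It was higher in 3 of 3 replicates with both gates, by 2.91 to 6.51 times. PD-L1low cells had a log2 fold change of -1.80 (SE 0.31, 95% interval -2.51 to -1.08) against control cells, with a lower value in 3 of 3 replicates, but this did not pass the threshold (adjusted p = 0.239). PD-L1high cells had a log2 fold change of 0.58 (SE 0.27, adjusted p = 0.681) against control cells and were higher in 3 of 4 replicates, with replicate 4 the other way.

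**Figure D1:**
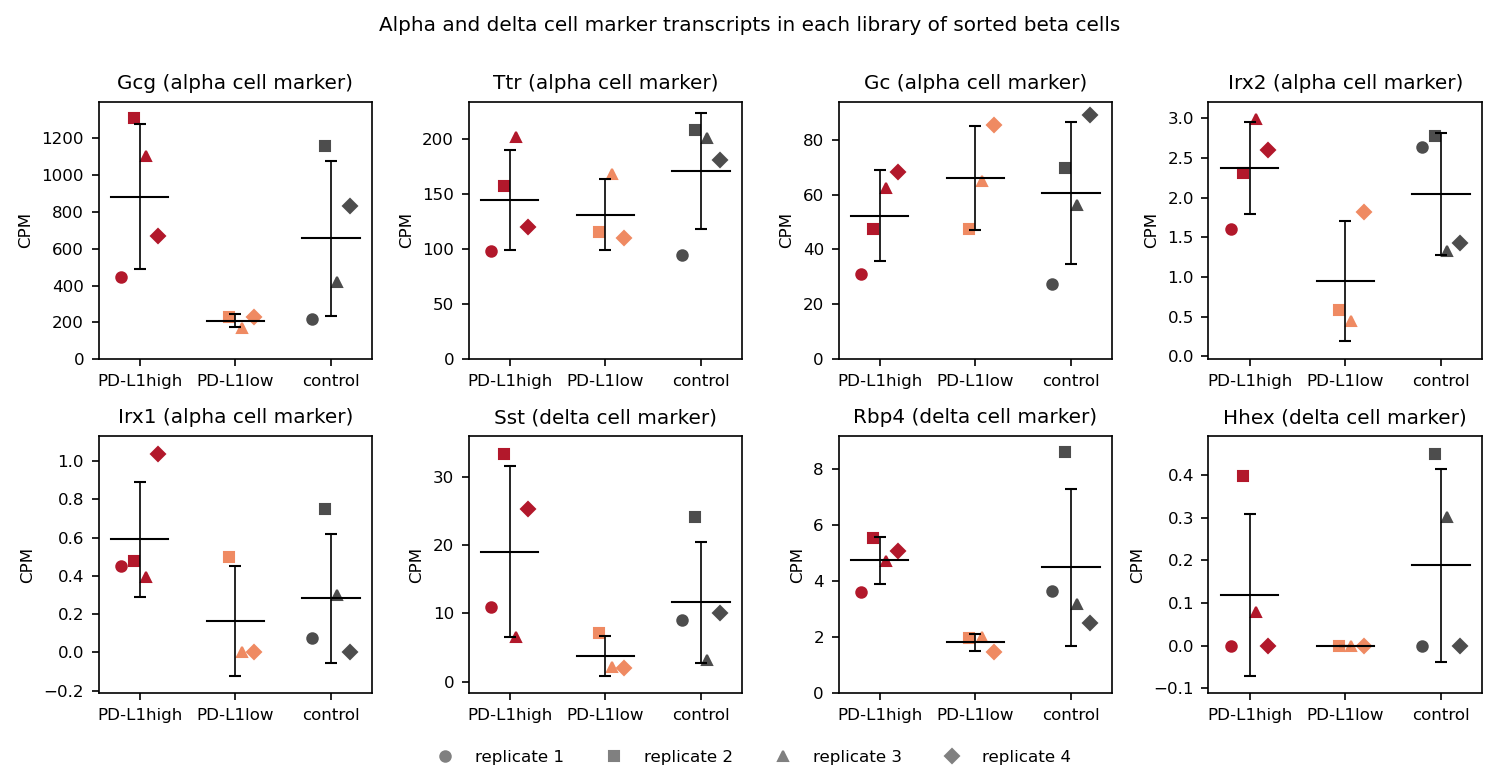
CPM (vertical axes) of the 8 alpha and delta cell marker genes in PD-L1high, PD-L1low and control libraries. Each point is 1 library, its shape gives the replicate number, and the bars are the mean and SD of the group. PD-L1low points of Gcg (170 to 230 CPM) and Rbp4 (1.47 to 2.00 CPM) lie below all PD-L1high points, while those of Ttr and Gc lie among the other groups.

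The call for Gcg rested on how replicates were handled and on which PD-L1low libraries were kept. Its adjusted p was 0.434 with a log2 fold change of 2.08 when the replicate number was left out of the model, and 0.226, 0.106 and 0.0605 without PD-L1low replicates 2, 3 and 4, or 0.255 without all libraries of replicate 2. In PD-L1low against control cells, where the edgeR fit of all libraries did not call Gcg, DESeq2 called it (adjusted p = 0.000258), as did edgeR on those groups alone (adjusted p = 0.000306) and edgeR without control replicate 3, PD-L1high replicate 4 or all of replicate 4 (adjusted p = 0.0370, 0.000711 and 0.0342).

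Somatostatin transcripts followed the same order of gates at a much lower level. Sst (ENSMUSG00000004366) was at 10.9, 33.5, 6.60 and 25.3 CPM in PD-L1high replicates 1 to 4, at 7.12, 2.14 and 2.04 CPM in PD-L1low replicates 2 to 4, and at 9.07, 24.1, 3.20 and 10.1 CPM in control replicates 1 to 4. The groups overlapped, because PD-L1low replicate 2 lay above PD-L1high replicate 3, yet within each of replicates 2, 3 and 4 PD-L1high was highest and PD-L1low lowest. Means were 19.1 ± 12.5 CPM (SD, n = 4) in PD-L1high cells, 3.77 ± 2.90 CPM (SD, n = 3) in PD-L1low cells and 11.6 ± 8.88 CPM (SD, n = 4) in control cells. Sst was 5.34-fold higher in PD-L1high than in PD-L1low cells, a log2 fold change of 2.42 (SE 0.34, 95% interval 1.70 to 3.14, edgeR adjusted p = 0.00135), with replicate ratios of 3.08 to 12.4. Against control cells, PD-L1low cells had a log2 fold change of -1.64 (SE 0.34, 95% interval -2.36 to -0.92, adjusted p = 0.153), with a lower value in 3 of 3 replicates. PD-L1high cells had a log2 fold change of 0.78 (SE 0.27, adjusted p = 0.434) against control cells, with a higher value in 4 of 4 replicates. Without the replicate number in the model, the difference between the PD-L1 gates was 2.35 on the log2 scale and was not called (adjusted p = 0.782). The value in PD-L1low against control cells was called by DESeq2 (adjusted p = 0.00191), by limma-voom (adjusted p = 0.0172) and by edgeR without PD-L1low replicate 3 or all of replicate 3 (adjusted p = 0.0415 and 0.0382).

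Rbp4 (ENSMUSG00000024990), the other delta cell gene with enough counts, was lowest in PD-L1low cells but its difference did not pass the threshold. It was at 3.61, 5.56, 4.72 and 5.09 CPM in PD-L1high replicates 1 to 4, at 1.99, 2.00 and 1.47 CPM in PD-L1low replicates 2 to 4, and at 3.65, 8.62, 3.20 and 2.51 CPM in control replicates 1 to 4. In CPM no PD-L1low library reached any library of the other conditions. In TPM, PD-L1low replicate 3 (5.05 TPM) lay above control replicates 1, 3 and 4 (3.80, 4.54 and 3.52 TPM) but below the lowest PD-L1high library (5.46 TPM). The Rbp4 values rest on 49 to 70 counts in PD-L1high, 21 to 27 counts in PD-L1low and 28 to 115 counts in control libraries. The log2 fold change was 1.47 (SE 0.43, 95% interval 0.55 to 2.38, adjusted p = 0.246) in PD-L1high against PD-L1low cells, and -1.28 (SE 0.43, adjusted p = 1.00) in PD-L1low against control cells. It was 0.19 (SE 0.37, adjusted p = 0.940) in PD-L1high against control cells.

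Hhex was close to absent from every library. It had 0, 5, 1 and 0 counts in PD-L1high replicates 1 to 4, 0 counts in each of PD-L1low replicates 2 to 4, and 0, 6, 5 and 0 counts in control replicates 1 to 4. The level that 3 counts would give, taken as the limit that a count of 0 allows, was 0.181 to 0.312 CPM over the libraries, and these limits cover counting error only. A difference in Hhex was not detectable at this depth, and in the edgeR fit with no filter on low counts its adjusted p was 1.00 in each comparison.

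The alpha cell genes other than Gcg did not move as one. Irx2 (ENSMUSG00000001504) had 25, 29, 38 and 25 counts in PD-L1high replicates 1 to 4, 7, 6 and 26 counts in PD-L1low replicates 2 to 4, and 34, 37, 22 and 16 counts in control replicates 1 to 4. Its levels were 1.61, 2.31, 2.99 and 2.60 CPM in PD-L1high, 0.580, 0.444 and 1.83 CPM in PD-L1low, and 2.64, 2.77, 1.33 and 1.43 CPM in control libraries. PD-L1low replicates 2 and 3 were below all other libraries and PD-L1low replicate 4 was not. The log2 fold change was 1.45 (SE 0.67, adjusted p = 0.581) in PD-L1high against PD-L1low cells and -1.22 (SE 0.69, adjusted p = 1.00) in PD-L1low against control cells. Irx1 had 7, 6, 5 and 10 counts in PD-L1high, 6, 0 and 0 counts in PD-L1low, and 1, 10, 5 and 0 counts in control libraries. Its groups overlapped, and it was filtered out before testing because so few libraries reached the count minimum of 10. In the edgeR fit with no filter on low counts its log2 fold change was 3.21 (adjusted p = 0.861) in PD-L1high against PD-L1low, -1.42 (adjusted p = 1.00) in PD-L1low against control and 1.79 (adjusted p = 0.980) in PD-L1high against control cells.

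Transthyretin and vitamin D-binding protein transcripts spanned smaller ranges over the 11 libraries than glucagon transcripts. Ttr (ENSMUSG00000061808, chr18:20665280-20674321, plus strand) was at 98.2, 157, 202 and 120 CPM in PD-L1high replicates 1 to 4, at 115, 169 and 110 CPM in PD-L1low replicates 2 to 4, and at 94.5, 209, 201 and 181 CPM in control replicates 1 to 4. All 3 groups overlapped. Highest over lowest library was 2.21 for Ttr and 3.25 for Gc, against 7.71 for Gcg and 16.4 for Sst. Within the PD-L1low libraries Gcg spanned less than both, at 1.53 for Ttr, 1.79 for Gc and 1.36 for Gcg. Sst there ran from 2.04 to 7.12 CPM, still the widest span of these genes. The log2 fold change of Ttr was 0.33 (SE 0.14, 95% interval 0.03 to 0.62, adjusted p = 0.541) in PD-L1high against PD-L1low cells. It was -0.57 (SE 0.14, adjusted p = 0.407) in PD-L1low against control cells, where DESeq2 called it (adjusted p = 0.0409), and -0.24 (SE 0.12, adjusted p = 0.692) in PD-L1high against control cells.

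Gc (ENSMUSG00000035540) was at 31.0, 47.6, 62.3 and 68.2 CPM in PD-L1high replicates 1 to 4, at 47.6, 64.9 and 85.4 CPM in PD-L1low replicates 2 to 4, and at 27.4, 69.8, 56.0 and 88.9 CPM in control replicates 1 to 4. The lowest library of both conditions that had a replicate 1 was that replicate, and no group stood apart. The log2 fold change was -0.08 (95% interval -0.41 to 0.26, adjusted p = 0.932) in PD-L1high against PD-L1low cells, so a difference between the gates of the size seen for Gcg lies outside its interval. It was -0.09 (95% interval -0.42 to 0.25) in PD-L1low against control cells and -0.16 (95% interval -0.46 to 0.14) in PD-L1high against control cells.

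**Figure D2:**
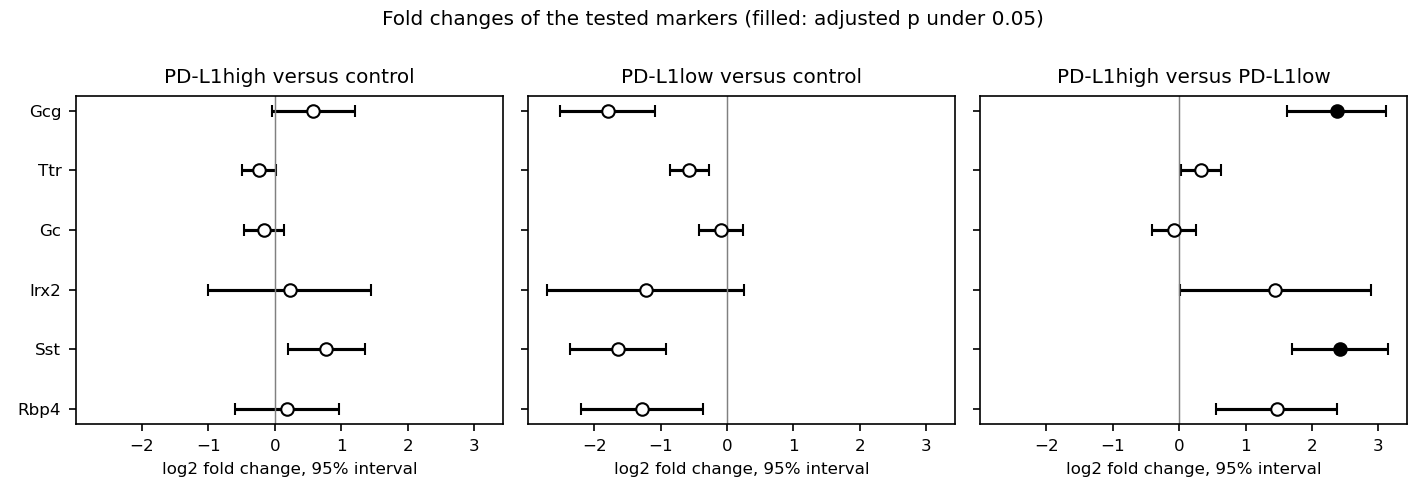
Log2 fold changes (horizontal axes) of the 6 tested markers in the 3 comparisons, with 95% intervals from the edgeR fit. Filled points passed an adjusted p of 0.05. Gcg (2.37) and Sst (2.42) passed in PD-L1high versus PD-L1low, and Gc lies near 0 in all 3 comparisons.

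Set against all 16252 tested genes, the comparison of the PD-L1 gates called 2 of the 6 tested markers higher in PD-L1high cells, beside 0.64% of all genes. The groups did not overlap and PD-L1high was higher for 2 of 6 markers (Gcg and Rbp4), beside 4.41% of all genes. PD-L1high was higher in every replicate with both gates for 5 of 6 markers, all but Gc, beside 16.4% of all genes. The median log2 fold change was 1.46 over the 6 markers and 0.00 over all genes tested. In PD-L1low against control cells edgeR called 0 of 6 markers, beside 0.08% of all genes. An unadjusted p under 0.05 was held by 4 of 6 markers, beside 342 of all 16252 genes. DESeq2 called 3 (Gcg, Ttr and Sst) and limma-voom 1 (Sst), and the calls of both tools over all genes are given in the last section. In CPM, PD-L1low was lower in each replicate for 4 of 6 markers (Gcg, Ttr, Sst and Rbp4), beside 10.6% of all genes, and below all control libraries for 1 of 6 (Rbp4), beside 1.43%. The median was -1.25 over the markers and 0.00 over all genes. In PD-L1high against control cells edgeR called 0 of 6 markers, beside 0.991% of all genes. There 1 of 6 (Sst) had an unadjusted p under 0.05, beside 1243 of all 16252 genes. DESeq2 and limma-voom called 0 markers, and the medians were 0.21 over the markers and -0.02 over all genes. The 3 comparisons share libraries and are not independent of each other.

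**Figure D3:**
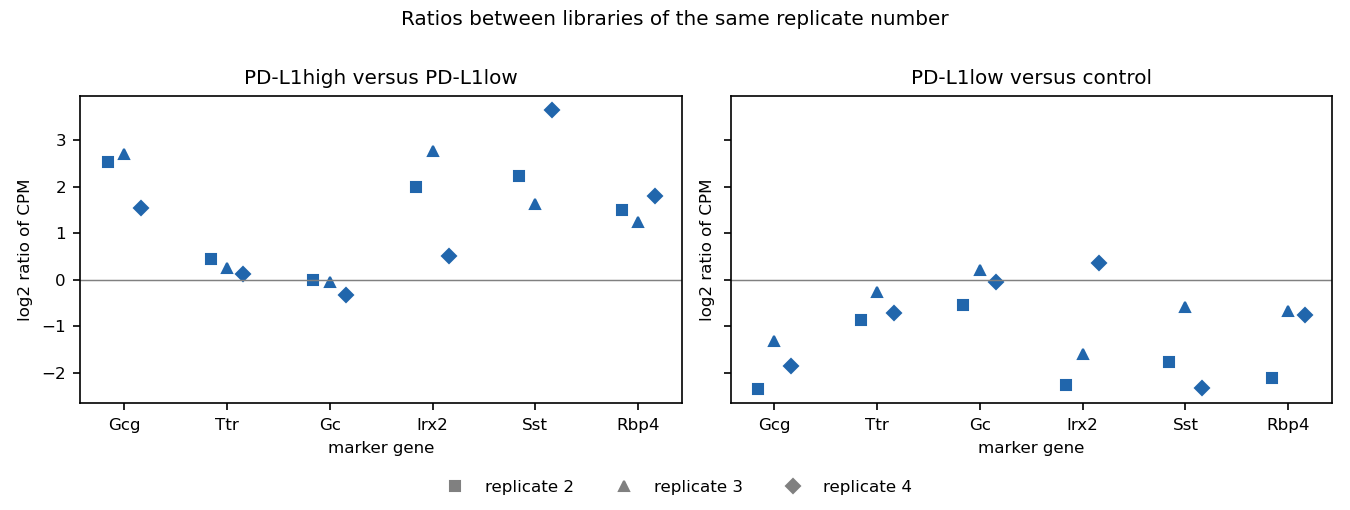
Log2 ratios of CPM (vertical axes) between libraries of the same replicate number for the 6 tested markers, in PD-L1high versus PD-L1low and in PD-L1low versus control. Each point is 1 of replicates 2, 3 and 4. All 3 points of Gcg, Ttr, Irx2, Sst and Rbp4 are above 0 in PD-L1high versus PD-L1low.

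The ratio of Gcg to Ttr and to Gc differed between the gates. Whether the Ttr and Gc transcripts came from alpha cells was not tested. Gcg over Ttr, both in TPM, was 5.25 to 9.73 in PD-L1high libraries, 1.17 to 2.42 in PD-L1low libraries and 2.43 to 6.44 in control libraries. Gcg over Gc was 18.8 to 53.1 in PD-L1high libraries, 4.98 to 9.19 in PD-L1low libraries and 14.2 to 31.8 in control libraries. In both ratios the PD-L1low libraries lay below all others. Gcg over Sst was 15.4 to 100.1 in PD-L1high, 19.3 to 67.1 in PD-L1low and 14.4 to 80.4 in control libraries, which overlapped fully. Per 1000 TPM of Ins1 and Ins2, Gcg was at 3.59 to 8.29 TPM in PD-L1high, 1.29 to 1.76 TPM in PD-L1low and 2.52 to 6.55 TPM in control libraries. In bulk libraries, fewer cells of a type and less RNA per cell cannot be told apart.

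**Figure D4:**
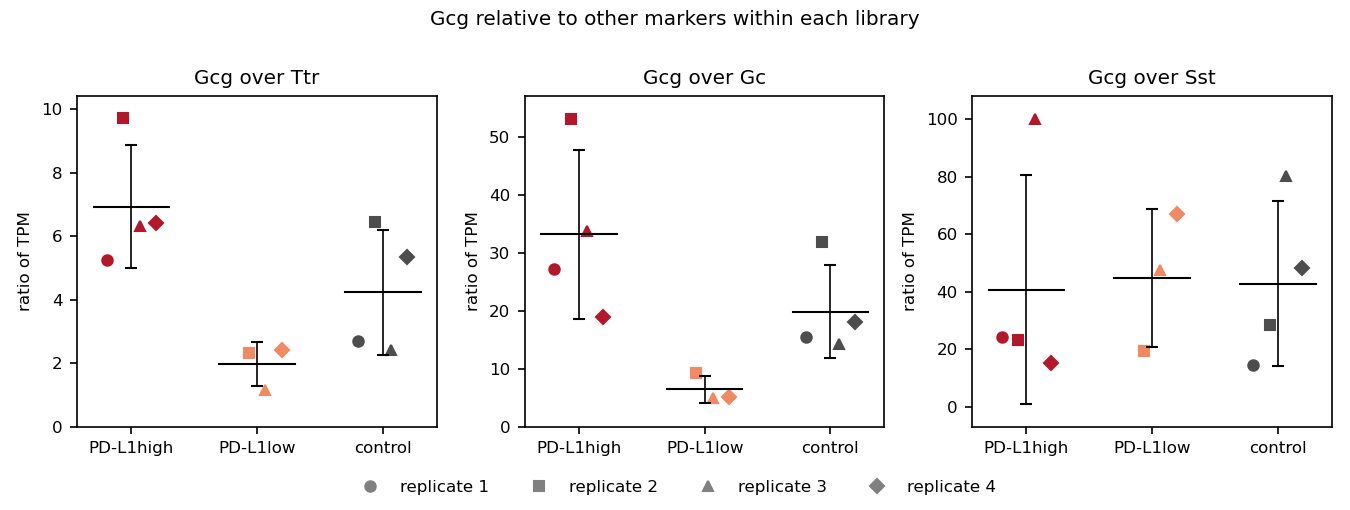
Ratio of Gcg TPM to the TPM of Ttr, Gc and Sst (vertical axes) in each library of the 3 conditions, with mean and SD bars. PD-L1low libraries lie lowest for Gcg over Ttr (1.17 to 2.42) and Gcg over Gc (4.98 to 9.19), and the conditions overlap for Gcg over Sst.

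The spread of the hormone and carrier transcripts within conditions was large for their level. The SD of log2 CPM around the condition means was 0.79 for Gcg, which was larger than that of 99.1% of genes within 2-fold of its level. It was 1.04 for Sst (98.8% of such genes), 0.46 for Ttr (98.3%) and 0.58 for Gc (98.6%). Irx2 (0.48, 25.5%) and Rbp4 (0.46, 43.8%) did not stand out among genes of like level.

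With condition means taken out, the genes whose log2 CPM over the 11 libraries was most like that of Gcg among 14494 genes were Prnp, the prion protein (Pearson r = 0.95), Tmem132b, Tspyl4, Soat1, which esterifies cholesterol, and Pcsk1, a prohormone convertase. Gc ranked 1257 (r = 0.72), Ttr 1327 (r = 0.71), Sst 4151 (r = 0.42) and Irx2 6132 (r = 0.20). Ahead of these markers were Pyy at rank 131 (r = 0.88), the insulin gene Ins2 at 401 (r = 0.83) and Ppy at 428 (r = 0.82). By these correlations Gcg was closer to Ins2 than to the other alpha cell markers ranked. The replicate number was not taken out. Replicate 1 held the lowest Gcg, Ins2, Ttr and Gc levels of both the PD-L1high and the control libraries. For Sst the most alike were Abca1, the cholesterol exporter (r = 0.97), Fmo1, Hykk, Cdh2, the N-cadherin gene, and Bag4, and Rbp4 ranked 404 (r = 0.61). With conditions left in, those most like Gcg were Gpx3, a secreted glutathione peroxidase (r = 0.88), the hormone genes Ppy and Pyy (both r = 0.87), Tspan8 (r = 0.86) and Lrp12 (r = 0.86), and those most like Sst were Bag4 (r = 0.91), Lgi1, Nfs1, Fmo1 and Fam126b, with Rbp4 at rank 22 (r = 0.80). These are descriptions over 11 libraries that share depth and replicate, without a test.

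Ppy and Pyy, the hormone genes of the PP cell, were higher in PD-L1high than in PD-L1low cells, as were Gcg and Sst. With condition means taken out, their correlation with Sst was lower than that with Gcg, at r = 0.57 for Ppy and 0.25 for Pyy. Ppy was at 169, 431, 243 and 234 CPM in PD-L1high, 20.8, 15.6 and 14.0 CPM in PD-L1low, and 95.7, 273, 168 and 147 CPM in control replicates. Its log2 fold change was 4.16 (adjusted p = 1.60e-10) in PD-L1high against PD-L1low, -3.49 (adjusted p = 1.32e-09) in PD-L1low against control and 0.67 (adjusted p = 0.00182) in PD-L1high against control cells. Without the replicate number in the model the last of these was not called (0.66, adjusted p = 0.913), while the others were (adjusted p = 0.00150 and 0.0175). Pyy, at 63.7 to 131 CPM in PD-L1high, 11.2 to 15.8 CPM in PD-L1low and 54.1 to 109 CPM in control libraries, had a log2 fold change of 2.96 (adjusted p = 4.04e-07) in PD-L1high against PD-L1low cells and -2.76 (adjusted p = 1.01e-06) in PD-L1low against control cells. The summed level of the PP list was 233 to 562 CPM in PD-L1high, 26.8 to 33.5 CPM in PD-L1low and 150 to 382 CPM in control libraries. The part of such cells in the differences of Gcg and Sst was not tested. Ghrl, the ghrelin gene of epsilon cells, stayed at 0.0795 to 0.623 CPM in PD-L1high, 0.444 to 1.12 CPM in PD-L1low and 0.0750 to 0.620 CPM in control libraries and was not tested.

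Of the surface markers used for sorting, Tfrc passed the test between the PD-L1 gates, beside Cd274, on which the cells were parted. Tfrc, which encodes CD71, was at 392, 305, 355 and 315 CPM in PD-L1high, 160, 210 and 200 CPM in PD-L1low, and 247, 272, 229 and 223 CPM in control replicates. It was higher in PD-L1high than in PD-L1low cells by 0.80 on the log2 scale (SE 0.13, adjusted p = 0.00608), in every replicate with both gates. Cd24a, which encodes the CD24 that is high on delta cells, was at 4.06 to 8.65 CPM in PD-L1high, 3.16 to 5.32 CPM in PD-L1low and 2.56 to 9.22 CPM in control libraries. Its log2 fold change between the PD-L1 gates was 0.88 (adjusted p = 0.469). Epcam (0.13, adjusted p = 0.871) and Itga6, the CD49f gene (-0.25, adjusted p = 0.571), did not pass there either. The part of the gate markers in the differences of Gcg and Sst was not tested.

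Other genes of alpha and delta cells gave no call by edgeR, DESeq2 or limma-voom. Of 8 further alpha cell genes 5 were tested, with 0 calls and with 0 at an unadjusted p under 0.05 in each of PD-L1high against control, PD-L1low against control and PD-L1high against PD-L1low cells. The most abundant were Pcsk2, the convertase that frees glucagon from its precursor and that beta cells also use, at 2277 to 2822 CPM in PD-L1high, 2112 to 2591 CPM in PD-L1low and 2127 to 3176 CPM in control libraries, then Slc7a2, a cationic amino acid transporter, and Smarca1. Their log2 fold changes between the PD-L1 gates were 0.17, 0.06 and 0.31. Slc38a5, an amino acid transporter of alpha cells that was named after its values were seen, was at 0.193, 1.99, 0.943 and 0.727 CPM in PD-L1high, 0.248, 0.444 and 0.351 CPM in PD-L1low, and 0, 1.57, 0.725 and 1.34 CPM in control replicates. Its groups overlapped, with a log2 fold change of 1.85 (SE 0.98, adjusted p = 0.645) in PD-L1high against PD-L1low cells and -1.51 (SE 0.95, adjusted p = 1.00) in PD-L1low against control cells. Irx3 and Irx5 were at 0 in all libraries. Of 5 further delta cell genes 2 were tested, Isl1 (log2 fold change -0.03 between the PD-L1 gates) and Edn3 (0.94, adjusted p = 0.851), with 0 at an unadjusted p under 0.05 in each comparison. Isl1 was at 93.0 to 162 CPM over the libraries, above the highest Sst value of 33.5 CPM, and whether its transcripts came from delta cells was not tested. Edn3 rested on 0 to 25 counts per library, so these 2 genes say little about delta cells.

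Genes that process these hormones or receive them gave no call by edgeR. Of 12 such genes 8 were tested, and 3, 0 and 3 had an unadjusted p under 0.05 in PD-L1high against control, PD-L1low against control and PD-L1high against PD-L1low cells. Over all 16252 genes tested, 1243, 342 and 1383 did so in the same order. Cpe, the carboxypeptidase that trims prohormones, was the most abundant, with a log2 fold change of 0.30 between the PD-L1 gates (adjusted p = 0.641). Glp1r, the receptor of glucagon-like peptide, was at 910, 1390, 1075 and 1163 CPM in PD-L1high, 1768, 1497 and 1519 CPM in PD-L1low, and 1022, 1632, 1400 and 1628 CPM in control replicates. Its log2 fold change was -0.38 (adjusted p = 0.294) in PD-L1high against PD-L1low cells. Gipr, the receptor of the other incretin, and Gcgr, the glucagon receptor, were named after their values were seen, with log2 fold changes of -1.07 (adjusted p = 0.159) and -0.59 (adjusted p = 0.328) in the same comparison. DESeq2 called Gipr and Glp1r in PD-L1high against both PD-L1low and control cells, and limma-voom called 0. Sstr3, the only somatostatin receptor of the list with enough counts to be tested, had a log2 fold change of 0.02 between the PD-L1 gates. Of 8 receptors and carriers of vitamins and thyroid hormone 6 were tested, with 0 calls by any of the 3 tools and with 1, 0 and 2 at an unadjusted p under 0.05 in the order of comparisons given before.

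The beta cell list held 10 tested genes with 0 calls by edgeR. Unadjusted p-values under 0.05 numbered 2, 0 and 1 in the same order, beside 1243, 342 and 1383 of all 16252 genes. Slc30a8 was called by DESeq2 and by limma-voom in PD-L1high against control cells. The summed level of the beta cell list was 63753 to 92502 CPM in PD-L1high, 74213 to 79809 CPM in PD-L1low and 62760 to 96422 CPM in control libraries. Markers of other pancreatic cells gave 0 calls by all 3 tools and 0 at an unadjusted p under 0.05 in the acinar, duct, Schwann, macrophage and lymphocyte lists. Few were tested, namely 1 of 7 acinar, 4 of 6 duct, 1 of 3 Schwann, 1 of 5 macrophage and 1 of 3 lymphocyte genes. Over all genes edgeR called 0.991% in PD-L1high against control and 0.08% in PD-L1low against control cells. It called 0.64% higher in PD-L1high than in PD-L1low cells, so 0 calls among so few genes say little. The 7 acinar genes summed to 0.472 to 1.99 CPM in PD-L1high, 0.248 to 1.69 CPM in PD-L1low and 0.600 to 4.12 CPM in control libraries. The 5 endothelial genes and the 5 stellate genes held no tested gene and summed to at most 0.786 and 1.47 CPM in any library. All 4 erythroid genes were at 0. Of the duct list Sox9 and Cftr, its defining markers, were at most 0.157 and 0.129 CPM, while Spp1 reached 466 CPM in PD-L1high replicate 1. Of the 5 macrophage genes, Lyz2 and Adgre1 were at 0 in all libraries, while Cd68, a lysosomal protein gene, was at 2.38 to 4.44 CPM in PD-L1high, 1.57 to 3.77 CPM in PD-L1low and 1.93 to 3.94 CPM in control libraries, and Csf1r was at most 0.961 CPM.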

How the data were processed

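RNA-seq was analysed for 11 libraries of sorted beta cells, with groups and replicate numbers taken from the sample titles. According to the methods, 5 ng of RNA per sample gave random-primed, stranded, rRNA-depleted libraries sequenced as paired reads, which the authors mapped with STAR 2.5.2b to GRCm38.p6 (GenCode M23) and quantified with RSEM. The RSEM version, and whether molecular identifiers were used, are not given in the sources used here. The authors deposited expected counts per gene, which are not normalized, and TPM, which the authors' RSEM run scaled by length and library. Expected counts were rounded, which changed a library total by at most 0.000265%. Totals were 10422038 to 15810817. TPM was used only for levels and ratios.

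Genes were kept with filterByExpr (count minimum 10), which left 16252 of 55487. The main test was edgeR 4.0.16 (R 4.3.3), quasi-likelihood with robust dispersion and TMM factors, with condition and replicate number as terms and p-values adjusted by Benjamini-Hochberg over all genes in each comparison, at a threshold of 0.05. The study used a batch term without defining it, and the replicate number, the only grouping in the labels, stood for it. Alternatives were no replicate number, other normalizations and filters, DESeq2 1.42.0, limma-voom (limma 3.58.1), only the groups compared, and leaving out each library or, as added after the data were seen, all libraries of each replicate number. Python 3.11.15, pandas 2.3.3 and matplotlib 3.10.9 made the summaries and plots. Fitting was tested on simulated counts.

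Likeness and spread used log2(CPM + 0.5), and likeness genes with a mean of at least 1 CPM. The genes named beyond the markers were those of the lists that passed a test, otherwise up to 3 of a list with the highest mean CPM, and the 5 most like Gcg and Sst by each measure. The markers and lists were chosen with earlier results of these data known. A gene of the further alpha cell list is not reported here. No library was a copy of another of its group, since counts in all 15 such pairs differed beyond sampling noise. RefSeq held a promoter for 6 of the 8 markers. Positions come from the GENCODE M21 annotation. The alpha and delta cell libraries of the study were not analysed here.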

Additional observations from a re-analysis of the deposited data

Results flagged for a closer look

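Irx1 was at 1.04 CPM in PD-L1high replicate 4, apart from the other 3 PD-L1high libraries at 0.393 to 0.477 CPM. Its gap to the nearest of them was 0.870 of the range of the group, above the limit of 0.829 for 4 libraries. The value rests on 10 counts against 5 to 7 in the others, and chance sets about 1 in 20 such groups apart; 16 groups were examined.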

How the results depend on the processing

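The replicate number was kept in the model because the study used a batch term, but same-numbered libraries did not all deviate together. Over 10 such pairs the correlation of deviations from the condition means was -0.33 to 0.41 (median 0.12, 6 pairs over 0.1), against a median of -0.04 over 30 other pairs, and 7 of 11 libraries correlated best with a library of their own number. Without the replicate block 0 of 6 markers were called between the PD-L1 gates (Gcg adjusted p = 0.434, Sst adjusted p = 0.782), and the log2 fold change of Gc in PD-L1low against control cells turned to 0.13. The calls of all genes in PD-L1high against control cells were 328 with no filter on low counts, 249 with DESeq2 and 249 with limma-voom, and 93 to 269 leaving out libraries, against 161. In PD-L1low against control cells they were 20 with library size only, 91 with no filter, 47 with DESeq2, 23 with limma-voom, 33 with only the groups compared and 8 to 43 leaving out libraries, against 13. Between the PD-L1 gates they were 354 with no filter, 202 with DESeq2, 180 with limma-voom and 64 to 143 leaving out libraries, against 119. Markers called in PD-L1high against control cells were 1 with no filter (Gcg, edgeR adjusted p = 0.00126, where the main fit gave 0.681) against 0. In PD-L1low against control cells they were 3 with no filter, 3 with DESeq2, 1 with limma-voom, 1 with only the groups compared and 0 to 1 leaving out libraries, against 0. With no filter Gcg, Sst and Ttr had edgeR adjusted p-values of 1.45e-30, 9.16e-06 and 0.0232 there. The main edgeR fit of the same libraries gave 0.239, 0.153 and 0.407. Gcg ran from 219 to 1161 CPM over the control libraries alone, so the value of 1.45e-30 should not be taken at face value. Between the PD-L1 gates, leaving out libraries called 1 to 2 markers. Sst kept its call in 22 of 23 alternatives and Gcg in 18 of 23, with log2 fold changes of 1.91 to 2.83 and 2.08 to 2.68. Signs turned among uncalled values leaving out libraries, where Gc ran from -0.27 to 0.012 in PD-L1high against control, -0.20 to 0.11 in PD-L1low against control and -0.20 to 0.040 in PD-L1high against PD-L1low cells, and in PD-L1high against control cells Irx2 ran from -0.18 to 0.55 and Rbp4 from -0.063 to 0.55. The cause was not tested in any of these cases. Leaving out a library of replicate 1 leaves its partner alone in its block. Depth limits Irx1 and Hhex, whose counts were at most 10 and 6.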
